A study of Homo sapiens with 2 samples.

Results

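The histone genes of PLC-8024, a human hepatocellular carcinoma (HCC) cell line, were examined in cells carrying a control vector (PLC-8024-CTR) and in cells overexpressing growth differentiation factor 1 (PLC-8024-GDF1). GDF1 is a secreted ligand of the TGF-β family, and the study asked how its overexpression alters these cells. Both groups were made by lentiviral transduction and puromycin selection of the same line, and each was measured as 1 poly(A)-selected RNA-seq library. The members were the genes whose deposited symbol begins with HIST1 to HIST4 and a histone type, with H2AFJ, H2AFV, H2AFX, H2AFY or H2AFZ, or with H1F0 or H1FX, together with H3F3A, H3F3B and H3F3C. The rule found 104 of 58174 listed genes, of which 87 were HIST genes and 17 carried variant names. Expression was measured as TPM, transcript abundance scaled by length and library total, and 52 members, 42 HIST genes and 10 variant genes, reached 1 TPM in one library or the other, out of 14929 such genes in all. The 10 variant genes included H1FX-AS1, an antisense RNA that matched the rule by name alone. The remaining 52 members stayed below 1 TPM in both libraries, and 14 HIST genes and 3 variant genes among them were listed at 0 in both. Nearest the limit were HIST2H2AB (0.884 and 1.15 TPM) inside and HIST1H4B (0.997 and 0.243 TPM) outside, with the control library given first here and in all pairs of TPM values.

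Histones package DNA into nucleosomes, which hold a pair each of H2A, H2B, H3 and H4, while H1 binds the linker DNA. Replication-dependent histones, encoded by the clustered HIST genes, are made mainly in S phase, and their mRNAs end in a conserved stem-loop bound by SLBP instead of a poly(A) tail. Variant histones replace them outside replication, are encoded by single genes with polyadenylated mRNAs, and mark particular chromatin states. Some HIST genes also give longer, polyadenylated transcripts.

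The change of a gene is the log2 ratio of TPM + 1 in the GDF1 library to TPM + 1 in the control library, and a change past 1 or -1 is called more than 2-fold. The pseudocount of 1 makes this value smaller than the plain TPM ratio for weakly expressed genes. With 1 library in each group there was no replicate, no difference could be tested against a spread, and no p-value is given. TPM sums to the same total in each library and holds no sequencing depth, so no counting error is given either. Over all 14929 genes, the median change was -0.20, with quartiles of -0.59 and 0.22. The overexpressed gene stood at 2.1 and 4.64 TPM, and CERS1, which shares its exons, at 13.3 and 9612 TPM. All 14 hepatocyte-lineage markers reached 1 TPM in one library or the other, and 7 of them were more than 2-fold lower in PLC-8024-GDF1, against 9.61% of all genes. TTR (7.17 and 0.340 TPM), 1 of the 7, reached it in the control library alone, so its direction was fixed. The pan-leukocyte marker PTPRC, the endothelial marker VWF and the fibroblast markers COL1A2 and DCN were listed at 0 in both libraries, and COL1A1 at 0.205 and 0.843 TPM, while CD68 (33.1 and 13.2 TPM) and PECAM1 (23.2 and 22.2 TPM) were not.

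The stem-loop was found in most, but not all, annotated HIST genes. It was searched for in the annotated transcripts as a stem of 6 base pairs, opening with GG and closing with CC, around a loop of 4 bases that begins with TT, with at most 1 unpaired position. Among annotated HIST genes, 61 held it, in 42 of which every annotated transcript stopped within 50 bases of it, while in 19 at least 1 transcript ran further or ended elsewhere. Another 16 annotated HIST genes lacked it, and 10 HIST genes were not annotated. The HIST class held 14 annotated pseudogenes, and all of them except HIST2H2BC were among the 16 without the stem-loop. The most common form, with a TTTC loop on a GGCTCT stem, was held by 36 members, 20 of them with at least 1 TPM. H4 genes carried a GGCCCT stem instead. H2AFX was the single variant gene with the stem-loop. The forms are shown as DNA of GRCh37, read 5′ to 3′ along the transcript, with the stem in capitals and the loop and flanks in lower case, each with the member of that form described in the results.
HIST1H3D, chr6:26197012-26197037, minus strand: ccaaaGGCTCTtttcAGAGCCaacca
HIST1H2BK, chr6:27114140-27114165, minus strand: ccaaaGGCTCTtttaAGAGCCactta
HIST2H2AC, chr1:149858936-149858961, plus strand: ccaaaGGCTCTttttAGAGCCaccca
HIST1H4J, chr6:27792232-27792257, plus strand: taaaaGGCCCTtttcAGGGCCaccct
HIST1H4K, chr6:27798952-27798976, minus strand: caaaaGGCCCTttttAGGGCCccca
HIST2H2BC, chr1:149821864-149821889, minus strand: ccaaaGGCTCTtttcAGGGCCattta
H2AFX, chr11:118965603-118965628, minus strand: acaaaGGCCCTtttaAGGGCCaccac

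The promoters also differed from those of most genes. A RefSeq promoter window of 300 bases, on GRCh38.p14, was matched to 61 HIST and 9 variant members. The CCAAT box, searched for as CCAAT or its reverse complement ATTGG, was found in 83.6% of the HIST windows and 66.7% of the variant windows, against 35.7% of all 27305 windows. TATAAA or its reverse complement TTTATA, with overlapping matches counted, was found in 67.2%, 44.4% and 12.0%, respectively. Some HIST windows cover the same DNA, so the same matches were counted for more than 1 gene. The windows of HIST1H2AM and HIST1H2BO overlap, as do those of HIST2H2AC and HIST2H2BE, and HIST1H3D shares its window with another HIST gene. A match describes these letters and not a bound site. The windows of HIST1H2BK, the HIST gene with the highest TPM, and of H2AFZ and H3F3B, a pair of variant genes more than 2-fold lower in PLC-8024-GDF1, are shown with both motifs in capitals.
HIST1H2BK, chr6:27146809-27147108, minus strand: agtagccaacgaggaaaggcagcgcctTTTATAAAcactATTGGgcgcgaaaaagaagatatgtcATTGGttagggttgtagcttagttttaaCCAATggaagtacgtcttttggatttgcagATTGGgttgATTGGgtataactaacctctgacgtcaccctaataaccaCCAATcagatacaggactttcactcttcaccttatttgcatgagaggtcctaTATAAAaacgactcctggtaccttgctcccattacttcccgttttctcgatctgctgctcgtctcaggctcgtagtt
H2AFZ, chr4:99950226-99950525, minus strand: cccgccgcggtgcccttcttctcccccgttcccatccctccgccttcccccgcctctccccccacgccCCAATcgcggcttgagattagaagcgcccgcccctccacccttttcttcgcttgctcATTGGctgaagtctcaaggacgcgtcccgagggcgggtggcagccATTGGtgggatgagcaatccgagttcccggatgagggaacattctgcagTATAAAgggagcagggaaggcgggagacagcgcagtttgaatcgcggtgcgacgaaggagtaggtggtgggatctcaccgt
H3F3B, chr17:75779730-75780029, minus strand: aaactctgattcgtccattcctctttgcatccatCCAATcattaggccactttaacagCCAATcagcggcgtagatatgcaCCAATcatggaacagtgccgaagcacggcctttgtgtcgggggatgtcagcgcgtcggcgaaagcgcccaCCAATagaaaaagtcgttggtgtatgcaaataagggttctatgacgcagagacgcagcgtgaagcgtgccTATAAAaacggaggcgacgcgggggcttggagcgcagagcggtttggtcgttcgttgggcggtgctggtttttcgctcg
The HIST1H2BK window held 6 CCAAT matches and 3 TATAAA matches, that of H2AFZ held 3 and 1, and that of H3F3B held 4 and 1. The window of H2AFJ, which was higher in PLC-8024-GDF1, held 3 CCAAT matches and 0 TATAAA matches.

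Variant and replication-dependent genes differed in level and in change between the libraries. Added up, the variant genes were listed at 1413 and 1100 TPM, a log2 ratio of -0.36. The HIST genes summed to 257.6 and 308.8 TPM, a log2 ratio of 0.26, and so made up 0.0258% and 0.0309% of all TPM. More than 2-fold higher were 2 of 42 HIST genes and 0 of 10 variant genes, against 4.82% of all genes with at least 1 TPM. More than 2-fold lower were 1 of 42 HIST genes and 4 of 10 variant genes, against 9.61% of all genes. The variant count was 2 after rescaling, with the GC trend subtracted or with the length trend subtracted, since H2AFZ and H3F3A then came within 2-fold. The share over all genes is that of the main setting and is not given for these alternatives. The median change was 0.05 for the HIST genes and -0.39 for the variant genes, but -0.01 and -0.09 with the length trend subtracted and 0.00 for both without the TPM minimum. All 10 variant genes reached 1 TPM in both libraries. Of the HIST genes, 5 reached it in the control library alone (HIST1H2AI, HIST1H2AJ, HIST1H3D (ENSG00000282988), HIST1H4A and HIST1H4C). Another 5 did so in the GDF1 library alone (HIST1H3H, HIST1H4D, HIST1H4E, HIST2H2AB and HIST2H3D). The direction of these 10 HIST genes was thereby fixed. They include HIST1H2AJ, the only HIST gene counted as more than 2-fold lower. The HIST count on the higher side was near the background share. The difference between the classes was not tested, because each group was 1 library.

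**Figure D1:**
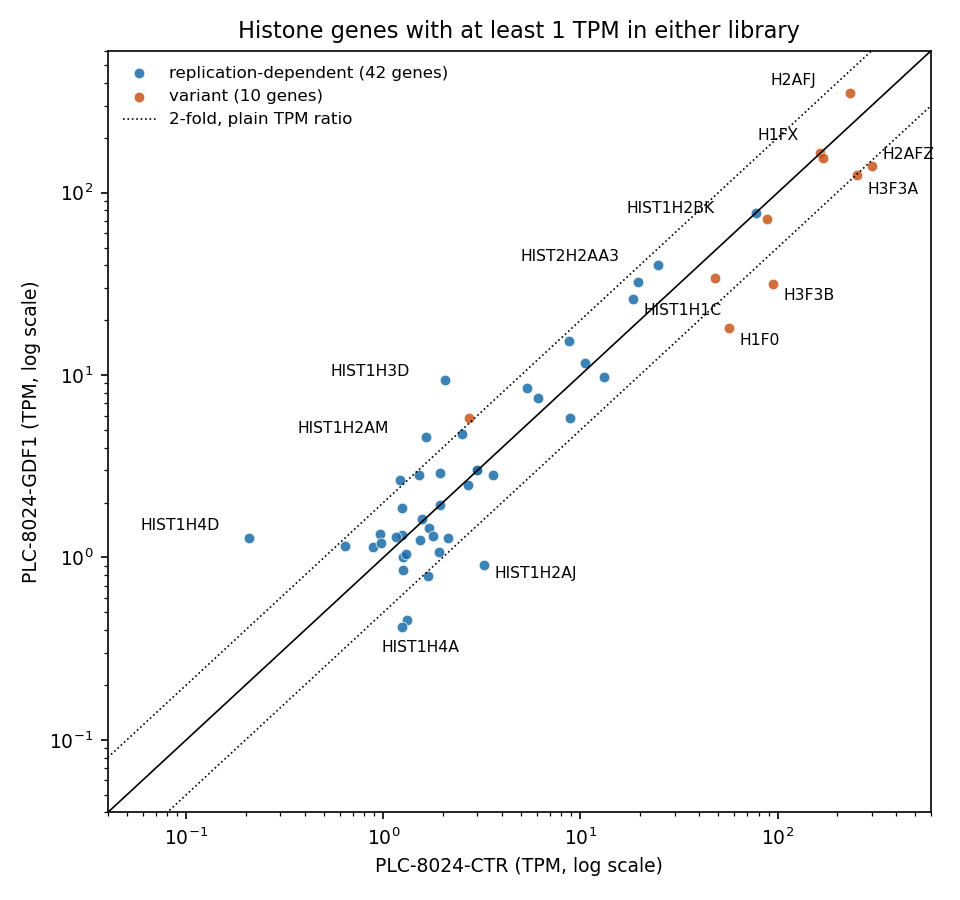
TPM of the 52 histone genes with at least 1 TPM in PLC-8024-CTR (x axis, log scale) and PLC-8024-GDF1 (y axis, log scale), 1 point per gene, coloured by class, with lines at equal TPM and at a plain 2-fold ratio. Most HIST genes lie below 10 TPM and scatter on both sides of the equal line. H1F0, H3F3B, H2AFZ and H3F3A, and among the HIST genes HIST1H2AJ, HIST1H4A, HIST1H4C and the second HIST1H3D entry, lie below the lower 2-fold line. HIST1H4D, the first HIST1H3D entry, HIST1H2AM, HIST1H2AE and H1FX-AS1 lie above the upper 2-fold line.

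The lower values among the variant genes were found in H3.3, H2A.Z and 1 linker histone. H3F3A and H3F3B encode the same protein, H3.3, which is placed in chromatin independently of replication. H3F3B (chromosome 17 of GRCh37, 73772515 to 73781974) was listed at 95.1 and 31.7 TPM, a log2 change of -1.55. H3F3A (chromosome 1, 226249552 to 226259720) was listed at 253.2 and 125.0 TPM, a change of -1.01 that lay just past the 2-fold limit. Added up, the H3.3 genes were listed at 348.2 and 156.7 TPM, a plain ratio of 0.450. Pseudogenes of H3.3 can take reads from both genes, and all 7 that were listed summed to 47.3 and 28.9 TPM, led by H3F3AP4 (30.9 and 15.8 TPM). With the pseudogenes added, the ratio was 0.469. H3F3C, a retrotransposed H3.3-like gene, stayed below 1 TPM. H3F3B overlaps UNK on the opposite strand, and UNK was listed at 14.6 and 10.6 TPM, below H3F3B in both libraries.

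H2AFZ (chromosome 4, 100869243 to 100871512) encodes H2A.Z, the variant found beside the start sites of many genes. It was listed at 300.9 and 140.6 TPM, a log2 change of -1.09, and was the highest histone gene of the control library. H2AFV, the second H2A.Z gene, was listed at 88.4 and 72.0 TPM (-0.29, and 0.05 with the GC trend subtracted), so the pair summed to 389.2 and 212.6 TPM. The lower sum of the H2A.Z pair came mostly from H2AFZ. H1F0 (chromosome 22, 38201236 to 38203439), a linker histone known for accumulating in cells that have stopped dividing, was listed at 56.6 and 18.1 TPM. Its log2 change of -1.60 was the lowest of the 52 genes.

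The other variant genes stayed within 2-fold, and the highest of them went the other way. H2AFJ (chromosome 12, 14927339 to 14930936), which encodes H2A.J, a variant described in senescent cells, was listed at 232.3 and 351.1 TPM, a log2 change of 0.59. It took the place of H2AFZ as the histone gene with the highest TPM and made up 31.9% of variant TPM in PLC-8024-GDF1. Without H2AFJ, the log2 ratio of the summed variant genes was -0.66 instead of -0.36. H2AFX, whose protein is phosphorylated at DNA double-strand breaks, was listed at 169.7 and 155.3 TPM (-0.13, and 0.08 after the rescaling described under the processing). H2AFY, which encodes macroH2A1 of silent chromatin, was listed at 48.3 and 34.0 TPM (-0.49). H1FX, a second replication-independent linker histone, was listed at 165.0 and 165.4 TPM (0.00). H1FX came to 0.21 after rescaling and to -0.31 with the GC trend subtracted. H1FX-AS1 overlaps H1FX on the other strand and was listed at 2.73 and 5.84 TPM (0.87). Whether the library marked strand is not given in the sources used here, so reads of the pair cannot be told apart.

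The make-up of H1, H2A and H3, the types with variant genes, differed between the libraries. For H3, the variant genes gave 95.5% of the summed TPM in PLC-8024-CTR and 87.8% in PLC-8024-GDF1. For H2A, they gave 91.3% and 87.4%, and for H1, 90.8% and 86.2%. The variant share was lower in PLC-8024-GDF1 in all of these types, and most so in H3. H2B and H4 had HIST genes only. Summed H3 of both classes was listed at 364.7 and 178.5 TPM, while summed H2A was listed at 920.4 and 862.7 TPM. These are shares of mRNA after poly(A) selection and not of protein, since mRNAs that lack a tail are removed at that step.

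**Figure D2:**
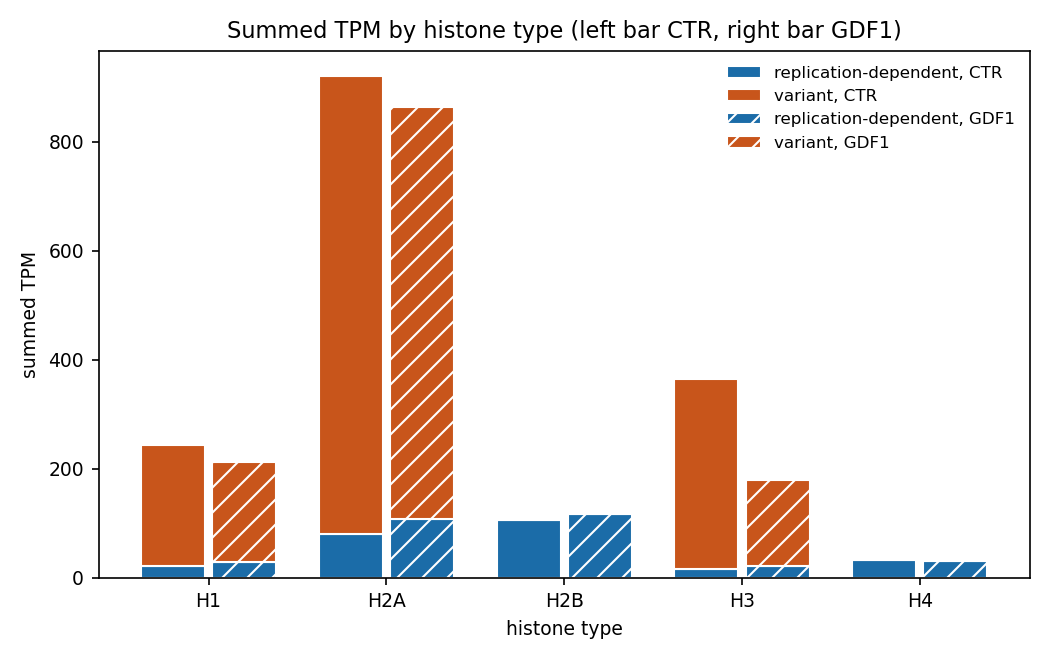
Summed TPM of all members of each histone type (linear scale from 0), with PLC-8024-CTR as the plain left bar and PLC-8024-GDF1 as the hatched right bar, stacked by class. Summed H3 is 364.7 TPM against 178.5 TPM, with most of the gap in the variant part, while H2B and H4 hold replication-dependent genes only.

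Among the replication-dependent genes, a handful held most of the TPM. HIST1H2BK (chromosome 6, 27114140 to 27114634), a core H2B gene, was listed at 77.3 and 76.9 TPM, or 30% and 24.9% of the class. Its log2 change was -0.01, and 0.20 after rescaling. Without it, the log2 ratio of the summed class was 0.36 instead of 0.26. HIST2H2AA3 (24.8 and 40.0 TPM) and HIST2H2AA4 (19.6 and 32.4 TPM) are near-identical H2A copies between which reads may be split, and together they were listed at 44.4 and 72.4 TPM, a ratio of 1.63. HIST1H1C, which encodes the linker histone H1.2, was listed at 18.5 and 26.2 TPM (0.48). The 4 HIST genes with the highest TPM were thus level or higher in PLC-8024-GDF1.

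By type, H2A genes summed to 80.1 and 108.5 TPM, with a median change of 0.28 over 12 genes. HIST2H2AC, whose mRNA ends in the TTTT-loop form shown above, was listed at 5.33 and 8.46 TPM (0.58), and HIST1H2AE at 1.21 and 2.66 TPM (0.73). On the lower side, HIST3H2A was listed at 13.2 and 9.79 TPM (-0.39), HIST1H2AH at 2.14 and 1.27 TPM (-0.46) and HIST1H2AC at 3.60 and 2.82 TPM (-0.27, and 0.10 with the GC trend subtracted). H2A genes therefore lay on both sides, with 7 above 0 and 5 below, against 5486 and 9443 of all 14929 genes. HIST1H2AM (1.65 and 4.56 TPM, 1.07) and HIST1H2AJ (3.25 and 0.905 TPM, -1.16) passed 2-fold in opposite directions. HIST1H2AJ reached 1 TPM in the control library alone, so its direction was fixed. In these H2A genes, 63.7% and 61.8% of the 100-base windows of the longest transcript also occurred in another member, so reads may have been exchanged with other copies. HIST1H2AM also overlaps HIST1H3J, which was listed at 1.31 and 1.04 TPM.

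H2B genes summed to 105.2 and 117.8 TPM, with a median change of 0.14 over 8 genes and none past 2-fold. HIST2H2BC, annotated as a pseudogene with 1 unpaired position in its stem, was listed at 8.78 and 15.4 TPM (0.74). HIST1H2BD was listed at 6.06 and 7.5 TPM (0.27) and HIST1H2BN at 2.51 and 4.72 TPM (0.71). HIST1H2BC (2.97 and 3.0 TPM, 0.01), HIST1H2BJ (1.26 and 1.0 TPM, -0.18) and HIST2H2BE (1.54 and 1.25 TPM, -0.18) moved little, and the latter pair turned to 0.03 and 0.05 with the GC trend subtracted. All of these encode, or derive from, core H2B.

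H3 genes of the HIST class were weakly listed and summed to 16.4 and 21.8 TPM. HIST1H3D (ENSG00000197409, chromosome 6, 26197012 to 26197514) had the highest change of all members, at 2.05 and 9.38 TPM (1.77). A second entry with the same symbol (ENSG00000282988) spans it on the same strand and was listed at 1.31 and 0.454 TPM (-0.67). This second entry reached 1 TPM in the control library alone, so its direction was fixed. The entries share the stem-loop shown above, 96.0% of the windows of the first occurred in another member, and together they were listed at 3.36 and 9.83 TPM, a ratio of 2.92. The remaining 7 H3 genes with at least 1 TPM changed by -0.27 to 0.26, so HIST1H3D stood apart from the other H3 genes. HIST1H3I and HIST1H3H marked the ends of that range, and HIST1H3H reached 1 TPM in the GDF1 library alone.

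H4 genes summed to 33.3 and 31.3 TPM, with a median change of 0.05 over 10 genes. HIST1H4K (10.5 and 11.6 TPM, 0.14) and HIST1H4J (8.81 and 5.80 TPM, -0.53) were the highest, and their sum was 19.3 and 17.4 TPM. They share 91.3% and 90.7% of their windows with other members although their stem-loops differ in the loop. HIST2H4A and HIST2H4B, identical over the windows compared, summed to 5.70 and 5.53 TPM. HIST1H4I (1.52 and 2.84 TPM, 0.61) and HIST1H4D (0.208 and 1.27 TPM, 0.91) were higher, and HIST1H4A (1.25 and 0.415 TPM, -0.67) and HIST1H4C (1.68 and 0.789 TPM, -0.58) were lower. Of these, HIST1H4D reached 1 TPM in the GDF1 library alone and HIST1H4A and HIST1H4C in the control library alone, so their direction was fixed. The log2 ratio of the H4 sum was -0.09, less than the 0.21 that the rescaling adds.

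The HIST1 genes, nearly all on chromosome 6, and the HIST2 genes on chromosome 1 were then compared. HIST1 genes summed to 174.1 and 191.0 TPM, with a median change of 0.03 over 32 genes. HIST2 genes summed to 69.3 and 107.3 TPM, with a median change of 0.19 over 9 genes. Above 0 were 7 of these 9 and 18 of the 32 HIST1 genes, against 5486 of all 14929 genes. The 7 include the near-identical HIST2H2AA3 and HIST2H2AA4, between which reads may be split. They also include HIST2H2AB and HIST2H3D, which reached 1 TPM in the GDF1 library alone, so that their direction was fixed. HIST2H2AA3 and HIST2H2AA4 gave 72.4 TPM of the HIST2 sum in PLC-8024-GDF1. HIST3H2A was the only HIST3 gene with at least 1 TPM, and HIST4H4 stayed below it.

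Read by their annotated ends, the 23 HIST genes whose transcripts all stop at the stem-loop had a median change of 0.17. The 14 with a transcript of another end had a median of -0.03, and the 4 that were not annotated had 0.36. The 1 gene annotated without the stem-loop changed by 0.04. With members below 1 TPM included, the stem-loop group summed to 153.7 and 172.3 TPM and the group with another end to 51.9 and 56.3 TPM. Those not annotated summed to 49.1 and 76.4 TPM, mostly from HIST2H2AA3 and HIST2H2AA4. The gene with the highest TPM in the class, HIST1H2BK, was among those annotated with the stem-loop end only. HIST3H2A, HIST1H2AC, HIST2H2BE, HIST1H4H, HIST2H4A and HIST2H4B each had a transcript that ran between 1110 and 1729 bases past the stem-loop. Their changes lay between -0.39 and 0.09, while those of all 14 genes with another end lay between -0.67 and 0.74. The annotated transcripts of H2AFX run between 821 and 1024 bases past its stem-loop, and it was listed above every HIST gene in both libraries.

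Other RNAs without a poly(A) tail, which poly(A) selection should also remove, were examined beside the HIST genes. Of 25 listed, 10 had at least 1 TPM, and their median change was 0.41. Of the 8 that reached 1 TPM in both libraries, each was higher in PLC-8024-GDF1, while SCARNA7 and RNU4-1 reached it in 1 library alone. Among all 10, 9 lay above 0, against 5486 of 14929 genes. RN7SL1, the RNA of the signal recognition particle, was listed at 776.4 and 1151 TPM (0.57), and RN7SK, a regulator of transcription elongation, at 230.1 and 273.7 TPM (0.25). RPPH1, the RNA of RNase P, was listed at 48.9 and 72.7 TPM (0.56) and SNORD3A, the U3 small nucleolar RNA, at 17.8 and 37.2 TPM (1.02). RNU4-1 was listed at 0 in PLC-8024-CTR and at 1.38 TPM in PLC-8024-GDF1, so its direction was fixed. SNORD3A and RNU4-1 were the 2 of 10 counted as more than 2-fold higher (20%, against 4.82% of all genes). The part of residual RNA without a tail in the HIST values was not tested.

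GC content and transcript length also differed between the classes. The longest transcripts of the HIST genes had a median GC content of 57.8% (38 genes) and those of the variant genes 49.8% (10 genes), against 49.6% over all genes. The trend of the change on GC content over all genes lay at a median of -0.05 for the HIST genes and -0.20 for the variant genes. The median length was 502.5 bases for the HIST genes and 2402 bases for the variant genes. With the GC trend subtracted, the variant median was -0.34 and the HIST median 0.18. With the trend on transcript length subtracted, they were -0.09 and -0.01, so that most of the gap between the class medians was no longer seen. H1F0 and H3F3B stayed past 2-fold under either trend. H2AFZ and H3F3A came to -0.88 and -0.61 with the GC trend subtracted, and to -0.98 and -0.90 with the length trend subtracted.

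**Figure D3:**
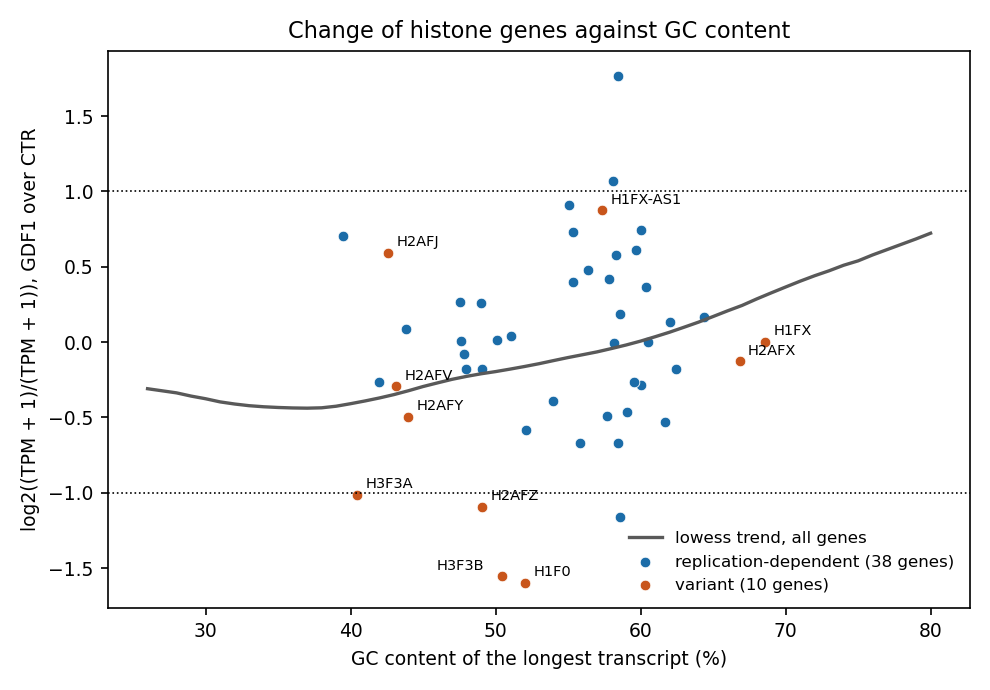
Log2 change on the log2(TPM + 1) scale against GC content of the longest transcript (%) for the 48 histone genes with at least 1 TPM and an annotated transcript, with the lowess trend over all genes and dotted lines at 2-fold. H1F0 and H3F3B lie furthest below the trend among the variant genes, and H2AFJ lies above it at a low GC content.

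The genes listed for histone mRNA processing mostly stayed within 2-fold. The list includes MIIP (80.1 and 109.7 TPM, 0.45), whose part in that processing was not checked here. Of 14 listed, 13 had at least 1 TPM, and 0 were more than 2-fold higher and 2 lower (15.4%, against 9.61% of all genes), with a median change of -0.19, close to that of all genes. SLBP, which binds the stem-loop, was listed at 26.4 and 18.4 TPM (-0.50). CSTF2, a cleavage factor shared with polyadenylation, was listed at 34.0 and 15.1 TPM (-1.12), and CASP8AP2, a factor of the histone locus body, at 1.35 and 0.134 TPM (-1.05). CASP8AP2, 1 of the 2 genes counted as lower, reached 1 TPM in the control library alone, so its direction was fixed. NPAT, the activator of HIST transcription in the same body, stayed below 1 TPM in both libraries. LSM10 (170.2 and 158.6 TPM) and LSM11 (1.42 and 1.52 TPM), subunits of the U7 particle that cleaves histone pre-mRNA, differed by -0.10 and 0.06. SYMPK, the scaffold of the cleavage complex, was listed at 84.3 and 123.8 TPM (0.55).

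The histone chaperones held some of the widest differences. The median change of the 26 genes, all with at least 1 TPM, was -0.34. Of them, 23 lay below 0, as did 9443 of all 14929 genes with at least 1 TPM. More than 2-fold higher was 1 (3.85%, against 4.82% of all genes) and 4 were lower (15.4%, against 9.61%). MCM2, 1 of the 4, is also on the S-phase list. HIRA, the chaperone that places H3.3 outside S phase, was listed at 22.8 and 3.38 TPM (-2.45), and its partner UBN1 at 7.67 and 2.85 TPM (-1.17). CABIN1, the third subunit of that complex, was listed at 16.0 and 15.2 TPM (-0.07). Of the other H3.3 pathway, DAXX was listed at 51.7 and 49.4 TPM (-0.06) and ATRX at 2.97 and 2.46 TPM (-0.20). Both H3.3 genes and HIRA and UBN1 were therefore lower in PLC-8024-GDF1, and CABIN1, DAXX and ATRX were nearly level. The relation between these genes was not tested.

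HAT1, which acetylates new H4, was listed at 23.2 and 4.21 TPM (-2.22). SUPT16H and SSRP1 form the FACT complex, which handles H2A and H2B dimers, and went apart, at 9.75 and 37.2 TPM (1.83) and at 77.0 and 50.8 TPM (-0.59). For H2A.Z, the remodellers SRCAP (11.1 and 9.75 TPM, -0.17) and EP400 (13.7 and 13.4 TPM, -0.04) moved little, YEATS4, a subunit of both complexes, was listed at 11.8 and 5.62 TPM (-0.95) and ANP32E, which removes H2A.Z, at 16.3 and 10.4 TPM (-0.60). Of the chaperones that hand on H3 and H4 made in S phase, CHAF1A was listed at 28.1 and 25.8 TPM (-0.12), CHAF1B at 11.1 and 8.47 TPM (-0.35), ASF1A at 15.7 and 9.0 TPM (-0.74) and ASF1B at 38.9 and 34.0 TPM (-0.19). CENPA, the centromeric H3 variant that the naming rule leaves out, was listed at 24.9 and 29.9 TPM (0.25), and its chaperone HJURP at 7.79 and 3.62 TPM (-0.93).

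HIST transcription is tied to S phase, so S-phase and proliferation genes were set beside it. Of 24 listed, 23 had at least 1 TPM, and 0 were more than 2-fold higher and 5 lower (21.7%, against 9.61% of all genes), with a median change of -0.43. After rescaling, 3 were lower with a median of -0.22. Subtracting the GC trend also left 3 lower, with a median of -0.14. The 9.61% is the share in the main setting and is not given for these alternatives. RRM2, a subunit of the enzyme that makes deoxynucleotides, was listed at 13.5 and 3.43 TPM (-1.71), TYMS, which makes thymidylate, at 69.5 and 28.8 TPM (-1.24) and CCNA2, the cyclin of S phase, at 13.3 and 5.0 TPM (-1.25). MCM2 and MCM4 of the replicative helicase changed by -1.09 and -1.13, while MCM7 changed by 0.05. PCNA, the sliding clamp of DNA replication, was listed at 100.6 and 74.5 TPM (-0.43) and MKI67, a marker of cycling cells, at 6.07 and 6.64 TPM (0.11). In RNA from whole cultures, fewer cells in S phase and less mRNA per cell cannot be told apart.

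**Figure D4:**
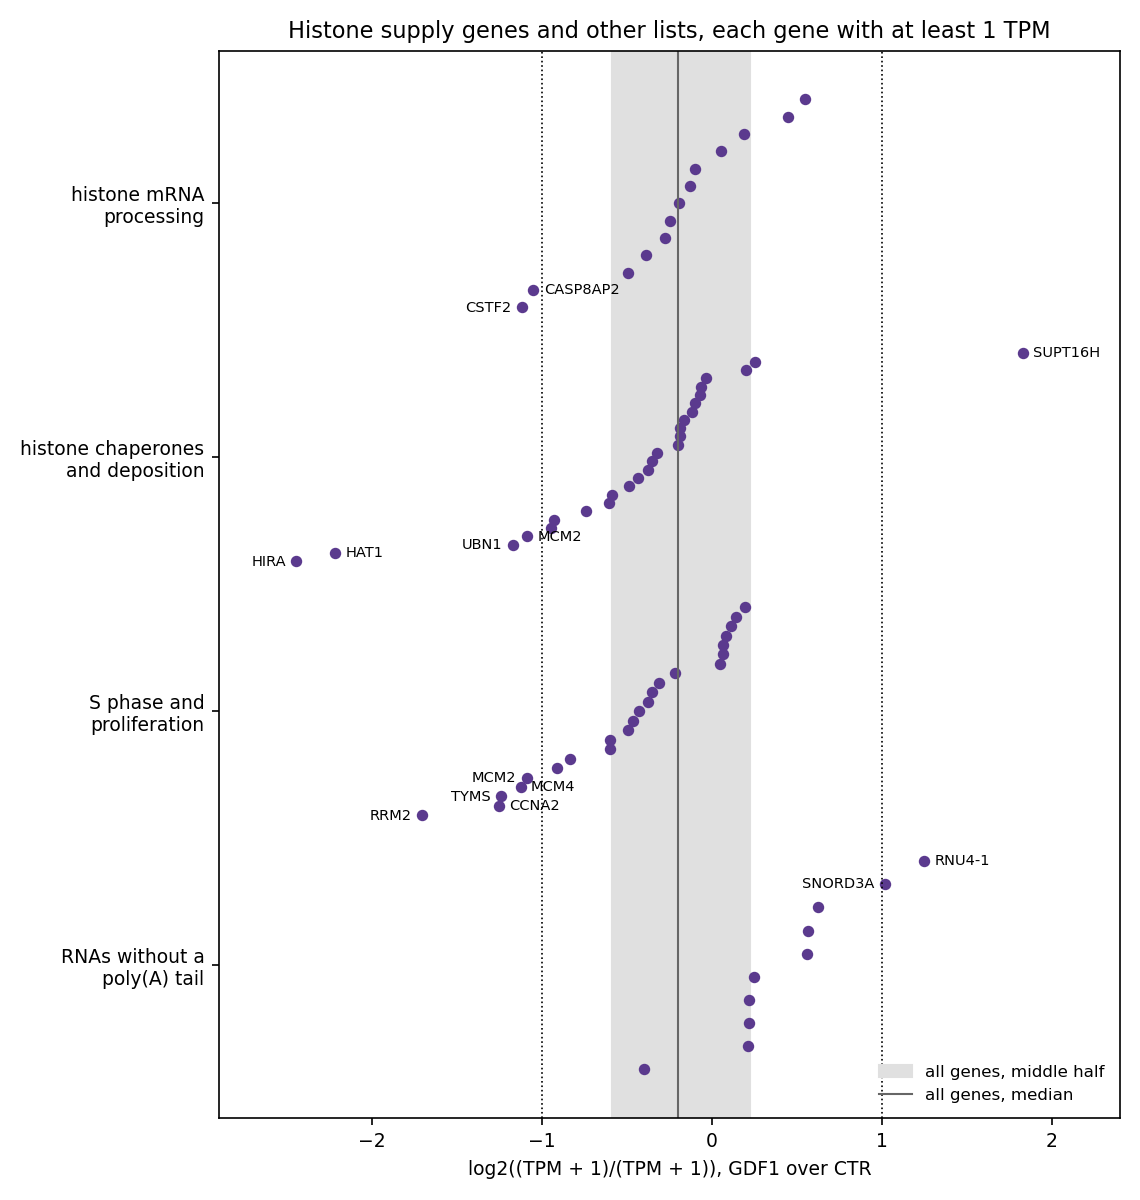
Log2 change on the log2(TPM + 1) scale (x axis) of each gene with at least 1 TPM in 4 lists, 1 point per gene, ordered by change within a list, with dotted lines at 2-fold and a grey band between the quartiles of all genes. HIRA and HAT1 lie below -2, SUPT16H lies at 1.83, and SNORD3A and RNU4-1, among the RNAs without a poly(A) tail, lie past 1.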

How the data were processed

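RNA-seq was performed on 1 library of PLC-8024-CTR and 1 of PLC-8024-GDF1. RNA was poly(A)-selected, and reads were filtered with Trimmomatic 0.36 and aligned to hg19 with HISAT2 2.1.0. The authors deposited TPM values per gene, computed with StringTie 1.3.3b, in which 0.0001 stands for 0. Their methods name RefSeq while the identifiers are Ensembl. TPM keeps no depth, and the study's quality metrics were not analysed here, so no precision is given.

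Here the tables were joined by identifier. Genes that reached 1 TPM in one library or the other were described with a pseudocount of 1. Every such member, and every gene of the lists, could be named. Members and lists were chosen with earlier results of these data known. Positions, transcripts and overlaps came from GENCODE v44 on GRCh37, which held 94 of 104 members. GC and length trends were fitted by lowess (span 0.3). In the rescaled alternative, PLC-8024-GDF1 TPM were multiplied by 1.15, so that the median log2 ratio of genes with at least 5 TPM became 0, which adds 0.21. Python 3.11.15, numpy 2.4.6, pandas 2.3.3, statsmodels 0.14.6 and matplotlib 3.10.9 were used, and the code was tested on simulated data.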

Additional observations from a re-analysis of the deposited data

How the results depend on the processing

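The number of HIST genes more than 2-fold higher was 2 and became 4 with a pseudocount of 0.1, 1 at 5 TPM or more, 4 with the GC trend subtracted, and 0 without genes overlapping another gene or without genes that share at least 50% of their windows. The number lower was 1 and became 4 with a pseudocount of 0.1, 0 at 5 TPM or more and 0 without genes of shared windows. For the variant genes, the count higher was 0 and became 1 (H1FX-AS1) with a pseudocount of 0.1, after rescaling and with the length trend subtracted. The count lower was 4 and became 2 after rescaling, 2 with the GC trend and 2 with the length trend subtracted. Under each of these, H1F0 and H3F3B stayed past 2-fold, while H2AFZ (-0.89, -0.88 and -0.98) and H3F3A (-0.81, -0.61 and -0.90) did not. The count of S-phase genes lower was 5 and became 3 after rescaling and 3 with the GC trend subtracted. That of RNAs without a tail higher was 2 of 10 and became 1 at 5 TPM or more. The shares over all genes (4.82% higher and 9.61% lower) are those of the main setting and are not given for the alternatives. The changed counts are therefore not set against all genes. The HIST median ranged from -0.01 (length trend) to 0.48 (5 TPM or more, where HIST1H3D entered through the GDF1 library alone) and the variant median from -0.49 to 0.00 (no filter). With the length trend subtracted the variant median was -0.09, so the gap between the classes nearly closed. With the GC trend subtracted, 6 single genes moved. After rescaling the medians were 0.19 and -0.19. The sums kept their directions under the alternatives tried. The length trend and the leaving out of shared windows or of H1FX-AS1 were chosen after the data were seen. No paired analysis was possible because each group was 1 library. The TPM values hold no depth, and the study's quality metrics were not analysed here, so the counting error of the low HIST values is not given.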
